A study of Caenorhabditis elegans with 2 samples.

Results

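The promoters of the chemoreceptor genes of Caenorhabditis elegans were examined for peaks of the transcription factor HLH-11. Members were the windows from 1000 bp upstream to 500 bp downstream of every annotated start of a protein-coding transcript of genes whose symbols belong to the sr families (sra, srab, srb, srbc, srd, sre, srg, srh, sri, srj, srm, srn, srr, srsx, srt, sru, srv, srw, srx, srxa, srz and str). The WBcel235 annotation held 1309 such genes in 22 families, out of 19973 protein-coding genes on the 6 chromosomes. The symbols alone set which genes were members, and no peak value entered that rule. The group itself was chosen with earlier results of these data known.

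The data were chromatin immunoprecipitation sequencing (ChIP-seq) peak lists from 1 group of 2 biological replicates, with no second condition. The animals were whole L4 larvae of mixed sex, 53 hours old and synchronised as starved L1 larvae, of strain OP396 with the genotype unc-119(tm4063) III; wgIs396. That strain stably expresses an HLH-11 fusion whose C-terminal end bears GFP and FLAG, and this fusion was precipitated with an antibody to GFP. The 4 deposited lists were a thresholded list, which is the top 7863 of the pooled ranking and was set by the authors with a criterion of reproducibility between replicates (IDR), a pooled list of 30000 ranked peaks that includes background, and a ranked list of 30000 for each replicate. A gene was called bound when the summit of a thresholded peak lay in its window. Because whole larvae were used, binding in a small number of cells and no binding cannot be told apart where no summit was listed. The sequencing depth behind the lists is unknown, and no untagged control was analysed here.

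Chemoreceptor genes encode seven-transmembrane receptors that are thought to detect odours, tastes and pheromones, and many are expressed in only a few ciliated sensory neurons. Related members often lie next to each other in tandem arrays, many of them on chromosome V. The basic helix-loop-helix factor HLH-11 is the worm counterpart of mammalian TFAP4, and factors of this class recognise E-boxes, short sites with the letters CANNTG. TFAP4 itself is known for binding CAGCTG.

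The sequences under the strongest summits whose nearest protein-coding start was that of a chemoreceptor gene are given here as a description. The 10 given are the strongest of these apart from that of sri-5, which would rank among them and is neither printed nor counted here. Each is the 101 bases centred on a summit, read from the reference genome (WBcel235, the same build as ce11) on the plus strand, and the summits are in order of decreasing signal. Capitals mark every match, on either strand, to the motifs searched: CAGCTG and CACGTG and CACATG, any other CANNTG, the GATA-type motifs TGATAA and CTTATC, and GAGAGA.
srh-2, strongest summit (chrV:731459-731559, plus strand): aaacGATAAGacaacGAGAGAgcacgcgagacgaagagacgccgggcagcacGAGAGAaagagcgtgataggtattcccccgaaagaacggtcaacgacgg
srh-2, intronic summit (chrV:730420-730520, plus strand): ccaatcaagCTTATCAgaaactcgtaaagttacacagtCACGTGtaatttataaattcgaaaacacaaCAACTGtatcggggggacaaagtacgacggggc
srv-1 (chrIII:6850362-6850462, plus strand): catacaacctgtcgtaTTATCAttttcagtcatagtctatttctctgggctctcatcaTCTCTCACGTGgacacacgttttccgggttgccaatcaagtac
srh-70 (chrII:12518997-12519097, plus strand): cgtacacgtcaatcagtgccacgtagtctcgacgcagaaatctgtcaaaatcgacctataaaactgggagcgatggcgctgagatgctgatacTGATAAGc
srz-62 (chrIV:3899974-3900074, plus strand): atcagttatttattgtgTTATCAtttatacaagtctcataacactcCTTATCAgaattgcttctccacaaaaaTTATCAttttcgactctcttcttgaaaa
srh-269 (chrV:16592344-16592444, plus strand): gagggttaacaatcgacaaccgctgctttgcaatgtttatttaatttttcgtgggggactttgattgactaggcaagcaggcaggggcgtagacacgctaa
srh-16 (chrV:12291744-12291844, plus strand): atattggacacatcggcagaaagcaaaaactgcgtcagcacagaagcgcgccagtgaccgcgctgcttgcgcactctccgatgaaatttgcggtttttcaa
srh-17 (chrV:14660693-14660793, plus strand): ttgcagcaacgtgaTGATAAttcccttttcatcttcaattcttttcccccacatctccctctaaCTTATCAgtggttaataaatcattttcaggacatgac
srh-76 (chrV:5832935-5833035, plus strand): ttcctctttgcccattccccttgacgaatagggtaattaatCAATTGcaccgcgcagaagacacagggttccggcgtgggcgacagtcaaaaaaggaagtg
srv-7 (chrX:5645809-5645909, plus strand): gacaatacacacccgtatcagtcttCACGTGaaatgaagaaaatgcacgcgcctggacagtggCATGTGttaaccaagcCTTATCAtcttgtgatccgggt
A CACGTG E-box stood in the intronic srh-2 sequence and in those of srv-1 and srv-7. None of the 10 held CAGCTG. Motifs of the GATA type stood in 7 of the sequences, and the sequences at srh-269 and srh-16 held no match to any motif searched. Over all 7863 thresholded summits, CACGTG stood within 50 bp at 5.84% and CAGCTG at 4.34%. TGATAA stood at 24.1% of them and CTTATC at 17.04%. The srh-70 and srh-269 summits lay within 100 bp of a small nucleolar RNA gene and a tRNA gene.

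HLH-11 summits were scarce at chemoreceptor promoters. Of the 1309 genes, 28 had a thresholded summit in the window, a share of 2.14% (exact binomial 95% interval 1.43 to 3.08%), against 4247 of all 19973 protein-coding genes (21.3%). Among the 18664 other genes the share was 22.6%, 10.6 times as large. With the pooled list, which reaches far weaker peaks, 83 chemoreceptor genes had a summit (6.34%, interval 5.08 to 7.80%) against 8110 of all genes (40.6%). The remaining 1226 chemoreceptor genes, 93.7% of them, had no summit of any rank in the pooled list, compared with 59.4% of all genes. The bound count depended on the window, with 55 genes when it reached 2000 bp upstream (all genes 26.7%) and 12 when it ran from 500 bp upstream to the start (all genes 15.4%). These shares describe 1 pair of libraries. The intervals cover counting error only, and neighbouring genes can share a summit, so they were not turned into a test.

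Both replicates gave the same picture. Among the 7863 strongest peaks of replicate 1, 34 chemoreceptor genes had a summit in the window, where all genes reached 21.9%. Among the 7863 strongest of replicate 2 there were 29, where all genes reached 20.8%. The replicates shared 28 genes, of which 27 were among the 28 bound in the thresholded list. The bound gene not shared was srbc-5, whose window had a summit at rank 4459 in replicate 1 and none within 100 bp in the list of replicate 2. The shared gene not bound was sre-23, which had no pooled summit within 13290 bp of its start although both replicate lists held one in its window. Of the bound chemoreceptor genes 96.4% were in the strongest peaks of both replicates, and of all bound genes 85.8%.

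The scarcity ran through nearly all families. In 10 of the 22 families, with 353 genes, no member was bound: sra, srab, srb, srd, srg, srn, srsx, srt, sru and srxa. Of these, 5 (srab, srb, srn, srsx and srxa, with 90 genes together) had no pooled summit either. The large srh family held 10 of the 28 bound genes, but these were 4.55% of its 220 members (interval 2.20 to 8.20%). The str family, which includes reporters for amphid neurons such as str-1 and str-2, had 2 bound genes among 193 (1.04%, 0.126 to 3.69%). Among 109 srw and 101 srx genes 1 each was bound (0.917% and 0.990%). The sri family had 3 of 61 (4.92%), srv 2 of 30 (6.67%) and srz 2 of 63 (3.17%), and srbc, sre, srj and srm had 1 each.

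The small srr family was the only family with a bound share above that of all genes. It had 3 bound genes of 9 (33.3%, interval 7.49 to 70.1%), an interval that spans the all-gene share. Families this small give little precision: the single bound gene of the 6 in srm gave 16.7% with an interval of 0.421 to 64.1%. With pooled summits no family exceeded the all-gene share, and the highest of the families of 30 genes or more were sri (10 of 61, 16.4%) and srv (4 of 30, 13.3%). Grouped by superfamily, 17 of 587 Str-type genes (2.90%), 1 of 124 Sra-type genes (0.806%), 3 of 309 Srg-type genes (0.971%) and 7 of 289 genes in the families outside these groups (2.42%) were bound.

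**Figure D1:**
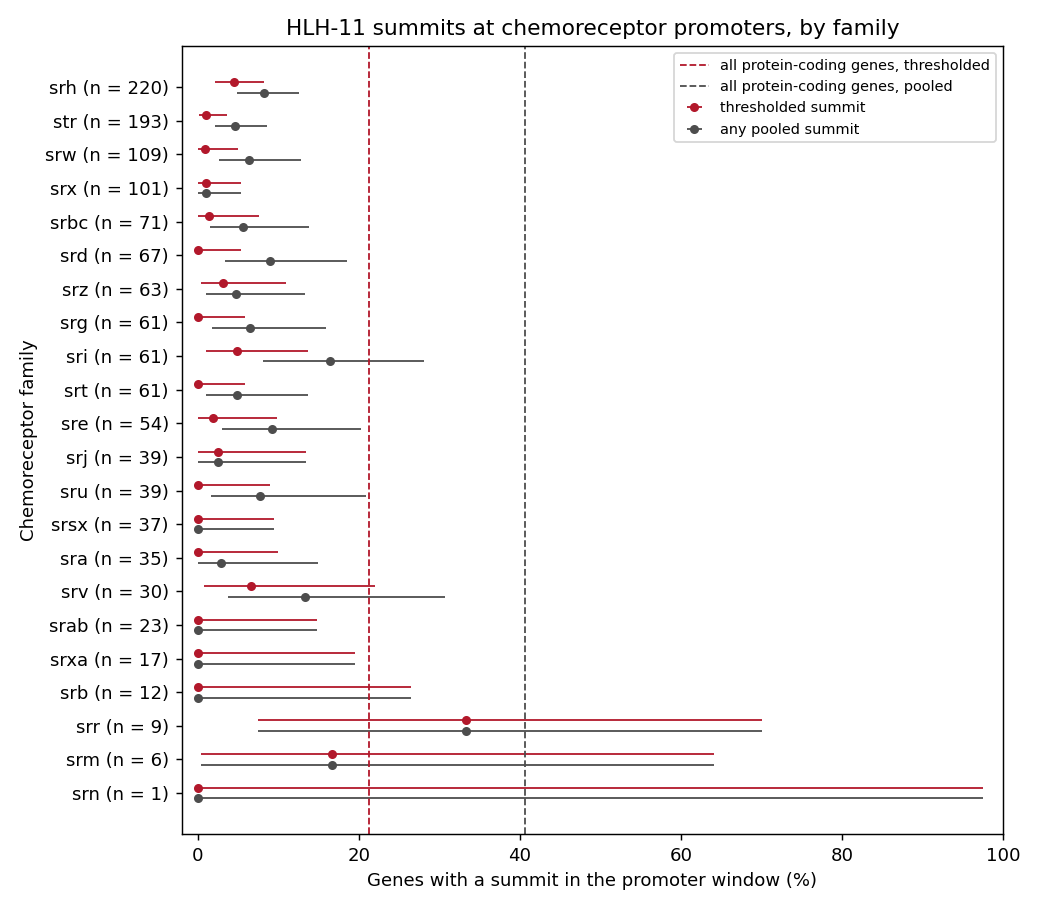
Share of genes with an HLH-11 summit in the promoter window (x axis, %) for each of the 22 chemoreceptor families (y axis, with the number of genes), for thresholded summits (red) and any pooled summit (grey). Points are shares, bars are exact binomial 95% intervals, and dashed lines are the shares of all protein-coding genes, 21.3% and 40.6%. Only srr lies above the red line.

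The strongest chemoreceptor peak lay at srh-2 (WBGene00005228) and stood well apart from the others. Its summit at position 731509 of chromosome V (peak 731257 to 731785) was 100 bp downstream of an annotated start, in the 5' UTR. It ranked 43 in the thresholded list with the authors' signal value of 1570, at rank 71 in replicate 1 and rank 35 in replicate 2. The gene has 7 annotated starts and had further summits in its windows. One at rank 600 (signal 596.3, ranks 931 and 477 in the replicates) lay in an intron, 933 bp upstream of another start. Another at rank 1267 (signal 394.4, ranks 1820 and 1031) lay 215 bp upstream of the most upstream start, but only 82 bp upstream of the start of icl-1, which encodes the glyoxylate cycle enzyme isocitrate lyase and malate synthase. The summits at ranks 43 and 600 lay outside the window of that most upstream start. All other bound chemoreceptor genes had 1 thresholded summit in the window.

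The next strongest peaks nearest to a chemoreceptor start were of lower rank. At srv-1 on chromosome III the summit lay 27 bp downstream of the start, in the 5' UTR, at rank 681 (signal 560.1), with ranks 674 and 708 in replicates 1 and 2. At srh-70 on chromosome II it lay 188 bp upstream at rank 787 (signal 518.1, ranks 897 and 709), within 100 bp of the small nucleolar RNA gene T21B4.20 and in the window of the homeobox gene ceh-99. At srz-62 on chromosome IV it lay 480 bp upstream at rank 1059 (signal 440.7, ranks 777 and 1411). Of these, srv-1 and srz-62 had a summit in no other gene's window. The srz-62 ranks differed most between the replicates, and those of srv-1 least.

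Ranks between 1333 and 1826 were held by a further 6 genes whose own start was nearest. At sri-5 the summit was 244 bp upstream at rank 1333, and it also lay in the window of rsr-1, a gene for a splicing-related protein. At srh-269 it was 352 bp upstream at rank 1467 and within 100 bp of a tRNA gene. At srh-16 it was 67 bp upstream at rank 1542. The summits of the remaining genes of this group lay in no other gene's window: srh-17 had its summit 562 bp upstream at rank 1639, srh-76 had its summit 846 bp upstream at rank 1682, and srv-7, on the X chromosome, had its summit in an intron at rank 1826, 906 bp upstream of an alternative start.

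Lower in the list were 6 genes with their own start nearest. The summit of sri-38 ranked 2540 and lay 487 bp upstream. Those of srr-4 and srr-6, which lie close together on chromosome V, ranked 2946 and 3613 and lay 929 and 399 bp upstream. The summit of srh-237 ranked 3119, 225 bp upstream. Those of srw-86 and str-176 were the weakest, at ranks 5658 and 5950, and str-176 had its summit in an intron.

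For 12 of the 28 bound chemoreceptor genes the strongest summit was nearer to the start of a protein-coding gene outside the sr families. Starts of small RNA genes were not compared. The srh-70 and srh-269 summits, each within 100 bp of such a gene, therefore count as own-start. Own-start summits therefore made up 57.1% (16 of 28, interval 37.2 to 75.5%), against 82.4% (3498 of 4247) of all bound genes. In no case was another chemoreceptor gene nearer. The srh-282 summit, second in rank among the bound genes at 532, lay 990 bp upstream of srh-282 and 31 bp upstream of sma-10, which acts in BMP-type body size signalling. The srr-10 summit at rank 896 lay 512 bp upstream of srr-10 and 196 bp upstream of clic-1, the clathrin light chain gene. The srm-3 summit at rank 2147 lay 936 bp upstream of srm-3 and 173 bp upstream of amph-1, the amphiphysin gene.

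The other 9 lay nearer to genes of varied kinds. The summit in the srz-97 window ranked 1768 and was nearer to the C-type lectin gene clec-57, and it lay within 100 bp of the small nuclear RNA gene F08H9.11. The srh-83 summit (rank 2691) was nearer to ugt-41, a UDP-glucuronosyltransferase gene, and the str-7 summit (rank 5729) was nearer to cth-1, a cystathionine gamma-lyase gene. The srx-21 summit (rank 3797) lay in a coding exon of the F-box gene fbxa-72. Those of sri-39 (rank 3417), srj-29 (3993), srh-35 (4336), srbc-5 (4365) and sre-1 (4502) were nearer to F33H12.7, F14H3.12, M02H5.8, T28A11.16 and B0495.9. When a summit was credited only to the gene with the nearest start, 16 chemoreceptor genes remained (1.22%), against 17.8% of all genes.

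**Figure D2:**
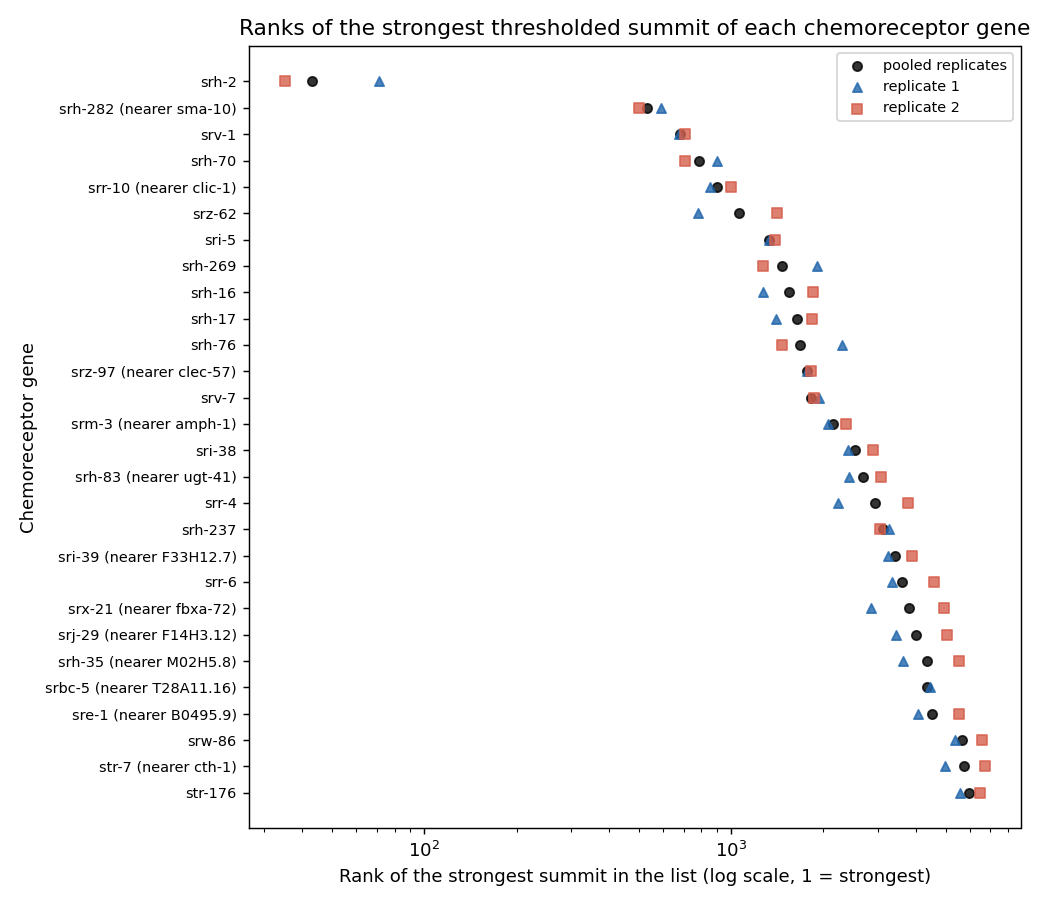
Rank of the strongest thresholded summit of each of the 28 bound chemoreceptor genes (y axis; another gene is named where its start is nearer) in the pooled list, replicate 1 and replicate 2 (x axis, log scale, rank 1 is the strongest). Only srh-2 ranks within the first 500 in all lists, and srbc-5 has no replicate 2 point.

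The few bound chemoreceptor genes were not among the weakest peaks of the list. The median rank of their strongest summit was 2343.5 (quartiles 1433.5 and 3846), against 3352 (1598.5 and 5375) over all bound genes, and the median signal values were 268.2 and 204.7. The quartile ranges overlapped. Ranks split by neighbourhood: the 16 genes with their own start nearest had a median of 1660.5, and the 12 with another gene nearer had 3607. The summits lay farther from the starts than elsewhere, at a median of 520 bp against 239 bp. Over 750 bp upstream were 9 of 28 (32.1%), against 11.2% of all bound genes. Of the 30 summits in chemoreceptor windows 24 were intergenic. The windows reach farther upstream than downstream, and no such share is given here for all summits, so this count is a description only.

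No chemoreceptor gene had its strongest summit close to the threshold on the inner side. The weakest bound members had signals of 122.5 (str-176), 128.2 (str-7), 129.8 (srw-86), 161 (sre-1) and 164.9 (srbc-5), where the lowest thresholded peak had 88.34. The strongest members below the threshold were str-39 at 86.17 (pooled rank 8011), srbc-58 at 82.31 (8338), srw-85 at 63.81 (10206), srd-35 at 60.62 (10659) and srw-88 at 58.72 (10964). Replicate ranks were less even there: srw-85 ranked 5739 in replicate 2 and had no peak within 100 bp in replicate 1, and srd-35 ranked 8101 in replicate 1 and 25008 in replicate 2. The srd-35 summit was 42 bp upstream of hrg-9, a heme-responsive gene, and 991 bp upstream of srd-35.

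Below the threshold the pooled list added 55 chemoreceptor genes, mostly with weak peaks. Their signals ran from 20.25 to 86.17 with a median of 30.06, and 47 of the 55 had their own start nearest, 5 a gene outside the families. Of the chemoreceptor genes with a pooled summit 33.7% were bound at the threshold, compared with 52.4% of all genes with one. In the families without a bound gene, the strongest members were srd-35, srg-20 (pooled rank 11148), sru-35 (12751), srt-39 (14162) and sra-25 (21051, with no peak in replicate 1).

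Chromosomal position differed between chemoreceptor and other genes, and the bound share was lower at every position examined. Chromosome V held 890 of the 1309 genes (68.0%, against 22.0% of other genes), and 76.1% lay in the left or right of 3 equal parts of a chromosome (called arms here), against 61.3%. On chromosome V 17 of 890 chemoreceptor genes were bound (1.91%) and 827 of 4104 other genes (20.2%). Across the 6 chromosomes the shares ran from 1.91 to 3.23% for chemoreceptors and from 18.8 to 28.5% for other genes. In the arms they were 2.11% and 21.0%, and in the centres 2.24% and 25.2%. Other genes weighted to the chemoreceptors' numbers in 18 strata (left, centre and right of each chromosome) had a bound share of 19.8%, and in bins of 1 Mb it was 18.9%, both far above 2.14%. With pooled summits the weighted share was 37.9%, against 6.34%.

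The bound share was lowest in long runs of consecutive chemoreceptor genes, which could mix families. Genes with no chemoreceptor gene next to them among the protein-coding genes were bound in 19 of 395 cases (4.81%, interval 2.92 to 7.41%). In runs of 2 to 4 consecutive chemoreceptor genes 8 of 554 were bound (1.44%, 0.625 to 2.83%). In runs of 5 or more it was 1 of 360 (0.278%, 0.00703 to 1.54%). With pooled summits the shares of these 3 groups were 11.65%, 5.60% and 1.67%, against 6.34% of all chemoreceptor genes. The longest run, of 25 srh and srw genes from srh-247 to srw-135 (chromosome V, 2933143 to 3011494), had neither a thresholded nor a pooled summit in any window. The next longest runs, with 13, 13, 12 and 11 genes, all on chromosome V, also had none of either kind.

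The neighbours moved with these counts. Windows that overlapped the window of a gene outside the families made up 36.5% of the isolated genes, 12.3% of those in runs of 2 to 4 and 5% of those in longer runs. Where windows overlapped in this way 19 of 230 chemoreceptor genes were bound (8.26%), against 26.8% of other genes whose windows overlapped another such gene. Where they did not, 9 of 1079 were bound (0.834%), against 19.8% of other genes. The part of these neighbours in the difference between isolated and clustered genes was not tested.

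The number of annotated starts also went with binding. Chemoreceptor genes with 1 start were bound in 18 of 1212 cases (1.49%), and those with several starts, which have more window length, in 10 of 97 (10.3%). The corresponding shares of other genes were 18.1% and 34.4%.

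Near-identical paralogs can make reads ambiguous, so the uniqueness of the windows was measured. The mean share of positions starting a 30-base word found once in the genome was 93.1% in chemoreceptor windows and 94.0% in the windows of other genes, with medians of 99.7 and 100%. In windows at least 95% unique, 23 of 962 chemoreceptor genes (2.39%) and 25.02% of other genes were bound. In less unique windows it was 5 of 347 (1.44%) and 14.4%. The median GC content was 33.5% against 35.4%. Between the lower and upper quartiles of the chemoreceptors' GC content 11 of 662 (1.66%) and 19.1% of other genes were bound.

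Around other genes HLH-11 summits piled up just upstream of the start, and around chemoreceptor genes they did not. In the 200 bp upstream of a start there were 76.3 thresholded summits per 1000 starts for other genes and 2.11 for chemoreceptors. The highest chemoreceptor value in the window was 9.15 per 1000 starts, between 1000 and 800 bp upstream. Pooled summits showed the same contrast, with 147.8 and 9.85 in the 200 bp upstream of the start. Per unit of sequence, chemoreceptor windows held 15.1 thresholded summits per Mb, fewer than the 78.4 of the genome as a whole and the 138.1 of other promoters. For pooled summits the densities were 56.3, 299.2 and 380.4 per Mb.

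**Figure D3:**
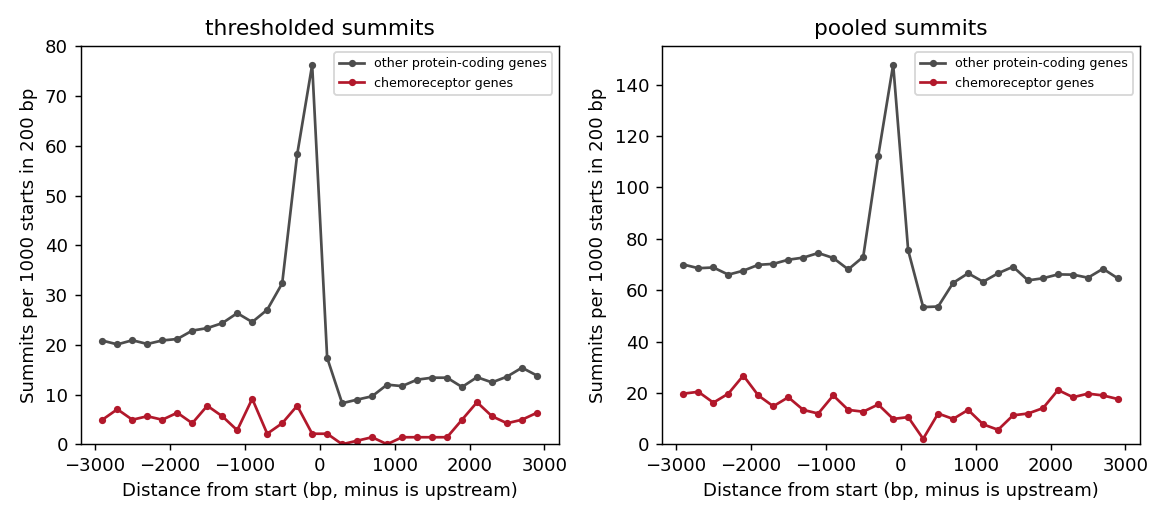
Summits per 1000 starts in bins of 200 bp (y axis) by distance from the start (x axis, bp, minus is upstream) for chemoreceptor genes (red) and other protein-coding genes (grey), for thresholded summits (left) and pooled summits (right, different y scale). The grey lines peak at 76.3 and 147.8 just upstream of the start, where the red lines have 2.11 and 9.85.

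The low density extended beyond the windows. The median distance from a chemoreceptor start to the nearest thresholded summit was 17097 bp, against 5236.5 bp for other genes, and to the nearest pooled summit it was 11164 against 1338 bp. Within 10000 bp of a start 31.3% of chemoreceptor genes and 66.9% of other genes had a thresholded summit. The most remote were sra-30 on chromosome IV, 153401 bp from the nearest, and srw-8 on chromosome V, at 153098 bp.

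**Figure D4:**
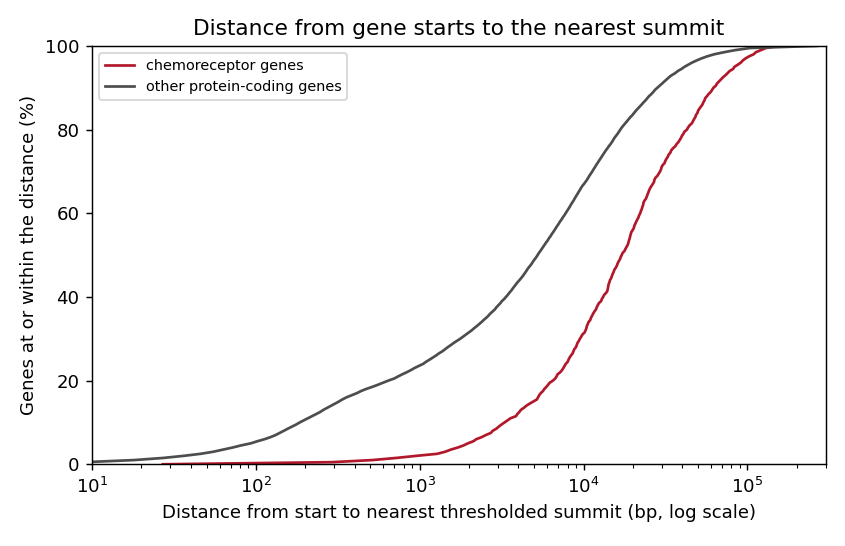
Cumulative share of genes (y axis, %) with a thresholded summit at or within a given distance of a start (x axis, bp, log scale), for chemoreceptor genes (red) and other protein-coding genes (grey). The red curve lies to the right, with medians of 17097 and 5236.5 bp.

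Of the chemoreceptors with well known expression or ligands, 17 were looked up and had no summit of either kind. They were str-1 (AWB neurons), str-2 (1 of the AWC pair), str-3 (ASI), sra-6, sra-9, sra-11, srb-6, the ascaroside receptors srg-36, srg-37, srbc-64, srbc-66 and srx-43, and srh-142, srh-220, srh-234, srsx-3 and srd-23. Their nearest thresholded summits lay from 3449 bp (srg-37) to 130293 bp (srd-23) away, with a median of 10814 bp. Among all chemoreceptors 93.7% had none in the pooled list, so the absence does not set these genes apart. The diacetyl receptor gene odr-10, which belongs to the str family by sequence but has no sr symbol, also had none, with the nearest at 1982 bp.

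Other gene groups were counted in the same windows. Nuclear receptor genes (nhr), another large worm family, were bound in 78 of 269 cases (29.0%, interval 23.7 to 34.8%). C-type lectins (clec), many of them induced by infection, were bound in 31 of 240 (12.9%, 8.95 to 17.8%), and F-box genes (fbxa, fbxb and fbxc) in 31 of 322 (9.63%, 6.64 to 13.4%). The intervals of these families did not overlap that of the chemoreceptors. Guanylyl cyclases (gcy), receptor-type and soluble, many of which act in sensory neurons, were bound in 3 of 31 (9.68%, 2.04 to 25.8%), namely gcy-33, gcy-35 and gcy-11. The gcy interval overlapped that of the chemoreceptors, so this count does not separate them.

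Receptors for neuropeptides and amines stood closest to the chemoreceptors. Of 124 such genes only npr-23 was bound (0.806%, interval 0.0204 to 4.41%), at rank 1727, and 12 (9.68%) had a pooled summit. Their intervals overlapped those of the chemoreceptors for both lists, so the counts do not separate the groups.

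Counts were different for chemosensory signalling genes, a list that also holds the receptor gene odr-10 and the trafficking factors odr-4 and odr-8. Of 55 genes for chemosensory signal transduction 14 were bound (25.5%, interval 14.7 to 39.0%), a share near the 21.3% of all genes. The strongest were gsa-1 (G protein alpha subunit of the Gs type, rank 108), eat-16 (a regulator of G protein signalling, 169), egl-30 (the Gq alpha subunit, 223), grk-1 (a G protein-coupled receptor kinase, 337), tax-6 (calcineurin A, 346) and egl-4 (a cGMP-dependent protein kinase, 578). With 1 start per gene the count was 9 of 55, where all genes had 19.7%. Several of these genes act in many tissues. The other bound genes were gpa-1 (1471), pde-4 (2535), gpb-1 (3537), pde-2 (3615), ocr-3 (3866), rgs-7 (3902), gpa-17 (4130) and gpc-2 (4262), which encode G protein subunits, phosphodiesterases, a channel subunit and a regulator of G protein signalling. A further 5 genes, goa-1, gpb-2, grk-2, pde-1 and pde-3, had only a pooled summit. Pooled summits were thus present at 19 of the 55 (34.55%, interval 22.2 to 48.6%), against 40.6% of all genes. Those with no summit in either list included the G protein subunits odr-3 and gpa-3 and the guanylyl cyclases odr-1 and daf-11. The channel subunits tax-2, tax-4, osm-9 and ocr-2 and the trafficking factors odr-4 and odr-8 had none either. Among all genes 59.4% had no pooled summit, so the absence does not set these genes apart.

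Regulators of chemosensory neuron identity and of receptor expression were bound in 7 of 31 cases (22.6%, interval 9.59 to 41.1%), again near the share of all genes, and 4 when only the strongest 3931 peaks were kept (all genes 12.4%). They included kin-29, a salt-inducible kinase that controls chemoreceptor expression (rank 367), mef-2, which acts downstream of it (1612), tir-1 (2211) and nsy-1 (7048), which set AWC asymmetry, ceh-37 (2497), daf-19, the ciliary RFX factor (3959), and sox-2 (7407). A further 3, ast-1, sek-1 and unc-3, had only a pooled summit. Pooled summits were thus present at 10 of the 31 (32.3%, interval 16.7 to 51.4%), against 40.6% of all genes. Those with no summit in either list included che-1, ceh-36, lim-4, ttx-1, lin-11 and odr-7, homeobox and other factors which specify individual sensory neurons. Among all genes 59.4% had no pooled summit, so the absence does not set these factors apart.

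**Figure D5:**
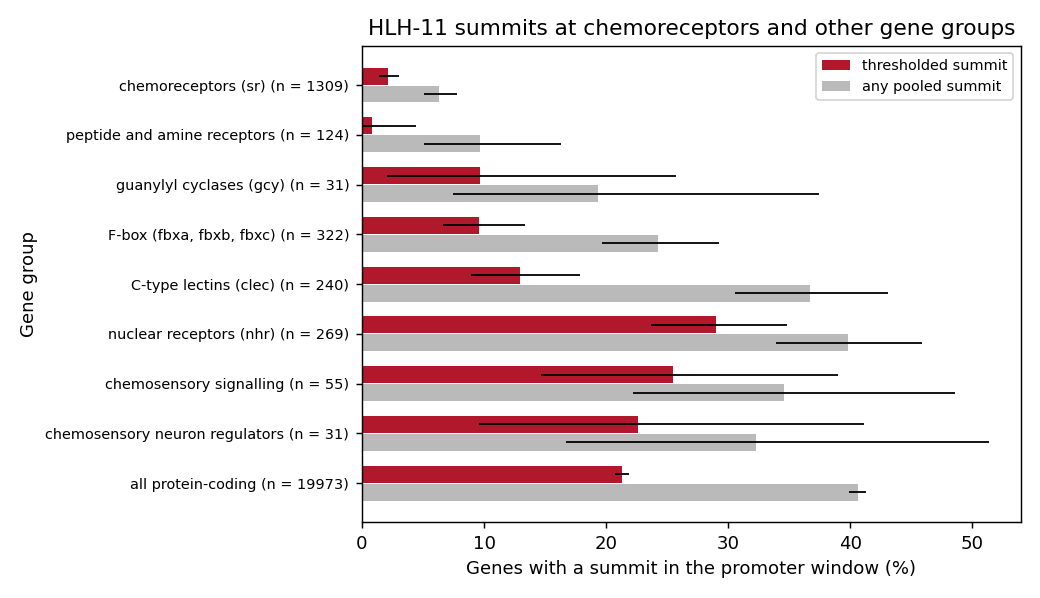
Share of genes with a thresholded summit (red) or any pooled summit (grey) in the promoter window (x axis, %) for chemoreceptors, other gene groups and all protein-coding genes (y axis, with the number of genes). Bars start at 0 and lines are exact binomial 95% intervals. Chemoreceptors (2.14%) and peptide and amine receptors (0.806%) have the lowest thresholded shares.

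Most of the motifs searched were about as frequent in chemoreceptor promoters as in all promoters. In the whole windows (1500 bp per start) CAGCTG stood in 27.2% of chemoreceptor genes and 26.2% of all genes. CACGTG stood in 20.9 and 22.5%, and TGATAA stood in 81.2 and 78.9%. CANNTG was in nearly every window (99.7 and 99.4%). CTTATC was somewhat less frequent, at 42.7% against 47.4%, and GAGAGA was less frequent, at 38.7% against 57.02%. Windows of genes with several starts are longer and so hold more matches. Several starts were annotated for 97 of 1309 chemoreceptor genes and for 5153 of 18664 other genes. The longer windows were thus more frequent among other genes, and the shares were not compared at equal length.

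At the summits themselves, motifs were counted within 50 bp on either strand. CANNTG includes CAGCTG and CACGTG and CACATG, and TGATAA and CTTATC overlap in part. Of the 30 summits in chemoreceptor windows 15 held CANNTG (50%, interval 31.3 to 68.7%), against 44.1% of all 7863 thresholded summits. CACGTG was present at 5 (16.7%, 5.64 to 34.7%, against 5.84%) and CAGCTG at 2 (6.67%, 0.818 to 22.1%, against 4.34%). CTTATC was present at 13 (43.3%, 25.5 to 62.6%, against 17.04%) and TGATAA at 12 (40%, 22.7 to 59.4%, against 24.1%). The interval for CTTATC lay above the share of all summits, those for the other motifs included it, and 7 motifs were counted. Within 25 bp that no longer held: CTTATC was at 5 summits (16.7%, 5.64 to 34.7%, against 9.42%) and TGATAA at 4 (13.3%, against 13.8%). GAGAGA was at 6 summits within 50 bp (20%, against 24.3%) and at 2 within 25 bp (6.67%, against 13.6%). Within 100 bp the intervals of both GATA-type motifs lay above the share of all summits. There CTTATC was at 53.3% (34.3 to 71.7%, against 26.2%) and TGATAA at 56.7% (37.4 to 74.5%, against 36.4%).

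Among the 17 summits nearest to a chemoreceptor start, CTTATC was present at 9, TGATAA at 8, CACGTG at 4 and CAGCTG at none. The 82 weaker chemoreceptor summits that were only in the pooled list held CTTATC in 5 cases (6.10%) and TGATAA in 5, where all 22137 such weaker summits had 5.87 and 9.94%. Strong and weak chemoreceptor summits therefore differed in GATA-type motif content in the same direction as strong and weak summits in general. A match is a string of letters and not evidence that a factor was bound there.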

How the data were processed

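Chromatin from 2 biological replicates of strain OP396 was sonicated (fragments of 200 to 800 bp, per the labels) and precipitated for tagged HLH-11, and 4 peak lists on build ce11 were deposited. Each list holds the authors' signal value per peak, on a scale that is not stated, and the deposited offset of the summit from the peak start. The aligner, the peak caller and their versions were not given in the sources used here. The signal was used only to rank and describe peaks within a list. The thresholded list was checked to be the 7863 strongest of the pooled list.

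Summits were placed in windows around transcript starts of the Ensembl release 115 annotation of WBcel235, the same assembly as ce11, with Python 3.11.15, numpy 2.4.6, pandas 2.3.3 and scipy 1.17.1. A window covered 1500 bp per start, and a summit could count for several genes. Replicate peaks were matched within 100 bp. Sequences came from the RefSeq copy of the genome. Shares have exact Clopper-Pearson 95% intervals for counting error only. No p-value was computed, because there is 1 group and no set test was made. The window count was tested on simulated summits, where 200 of 200 planted genes were recovered. Of the regulator list 31 of 32 symbols matched the annotation (nsy-5 did not), and of the signalling list 55 of 55. The text names every bound chemoreceptor gene, the strongest of each family, the 5 members on either side of the threshold, and nearer genes. Members and lists were chosen with earlier results of these data known. The most remote genes, the longest runs and the members of comparison lists were named after their values were seen. The well known receptors, the runs, the number of starts and the uniqueness of windows were examined after the files were seen.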

Additional observations from a re-analysis of the deposited data

How the results depend on the processing

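With 1 group of 2 replicates, limits come from the lists and windows rather than from a test: depth is unknown, no untagged control was analysed, and shares rest on gene models and on shared intergenic regions. No paired analysis was possible because there is only 1 group. Over 11 settings the share of all genes was 6.36 to 16.79 times that of chemoreceptor genes. The 28 bound chemoreceptor genes became 55 with windows reaching 2000 bp upstream (4.202%, against 26.7% of all genes), 12 with windows from 500 bp upstream to the start (0.917%, against 15.4%) and 16 with the nearest start only (1.22%, against 17.8%). They stayed within 1.5 times with the strongest 3931 peaks (21, all genes 12.4%) and 1 start per gene (26, all genes 19.7%). The same held for any overlap of the peak (32, all genes 22.8%) and overlapping peaks merged into 7476 regions (28, all genes 21.2%). Alternatives chosen after seeing the data gave 25 with 357 peaks at small RNA genes left out (all genes 20.7%). Windows at least 95% unique gave 23, but of 962 chemoreceptor genes rather than 1309 (2.39%, all genes 23.6%). Without either replicate the count was 29 to 34 (all genes 20.8 to 21.9%). The 83 genes with a pooled summit became 53 with the strongest 20000 peaks (all genes 34.6%), 143 with the longer window (47.1%) and 35 with the shorter one (27.2%).

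The median rank of the strongest summit, 2343.5, was 2373 to 2410.5 without either replicate, 1682 with the strongest 3931 peaks, 3136 with the longer window, 2041 with the shorter window, 1660.5 with the nearest start only, 2818.5 with any overlap and 2309 with merged peaks. Own-start genes numbered 9 instead of 16 with the shorter window, and 13 with 1 start per gene. Bound signalling genes numbered 9 instead of 14 with the shorter window (all genes 15.4%) and also with 1 start per gene (19.7%). Bound regulators numbered 4 instead of 7 with the strongest 3931 peaks (all genes 12.4%). CANNTG was at 30% of chemoreceptor summits within 25 bp and at 76.67% within 100 bp, against 24.9 and 65.7% of all summits. CTTATC was at 16.7% and 53.3%, against 9.42 and 26.2%, and its interval no longer lay clear of the share of all summits within 25 bp. TGATAA was at 13.3% and 56.7%, against 13.8 and 36.4%, and its interval lay above the share of all summits only within 100 bp. In these alternatives fewer or more bases, starts or peaks were counted by construction. Counts for single comparison families stayed within 1.5 times in 35 cases and moved further in 10.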
